A study of Caenorhabditis elegans with 2 samples.

Results

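The cytosolic ribosomal protein genes of Caenorhabditis elegans were examined for binding of PHA-4 in late embryos. They were taken as every protein-coding gene of the WBcel235 Ensembl annotation whose symbol is rpl- or rps- followed by a number, which gave 78 of 19985 genes, 47 for the large and 31 for the small ribosomal subunit. Binding was measured by chromatin immunoprecipitation and sequencing (ChIP-seq) of PHA-4 tagged with eGFP, in whole animals of pooled sex from strain OP37, which carries unc-119(ed3) III and the insertion wgIs37. The samples were 2 biological replicates of this 1 group, of unknown age within the stage, and there was no untagged or mutant group. The labels give neither the promoter nor the copy number of the tagged gene, and they do not say whether the native pha-4 gene is intact. No RNA was measured, so nothing here speaks to the expression of any gene.

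Ribosomal proteins fold around the ribosomal RNAs to form the small subunit, which decodes the messenger RNA, and the large subunit, which joins the amino acids. The proteins are needed in near equal numbers, and their genes, which are scattered over the chromosomes, are among the most strongly transcribed in growing cells. Many worm messenger RNAs, those for ribosomal proteins among them, receive their first bases by trans-splicing of a short leader RNA, so that an annotated start can lie downstream of the place where transcription begins. PHA-4 belongs to the FoxA class of forkhead factors and is required for the pharynx, and it acts in the gut as well.

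A gene was counted as bound when the summit of a deposited peak lay from 1000 bp upstream to 500 bp downstream of one of its annotated transcript starts. The authors' relaxed ce11 lists, which contain background by design, held 5607 peaks for replicate 1, 1729 for replicate 2 and 7768 for the pooled reads, and their final list held 9. The value attached to each peak is the authors' signal, which their caller computed against the control. Its scaling between lists is not stated, so values of different lists stand side by side and are not compared in size. The lists give no read counts, and the depth of the libraries is unknown. The replicates were unlike: 5248 peaks of replicate 1 and 0 of replicate 2 had a q-value (the authors' false discovery estimate) of 0.05 or less, and the smallest q in replicate 2 was 0.351. Every count for replicate 2 therefore rests on peaks that the authors' own q does not tell apart from background.

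In replicate 1 a summit lay in the window of 53 of the 78 ribosomal protein genes (67.95%), against 14.3% of all protein-coding genes. In the pooled list it was 55 of 78 (70.51%), against 17.8%. In replicate 2 it was 5 of 78 (6.41%), against 3.1%, and the same 5 made up the count for both replicates, against 0.64%. The gene group was selected on these peak counts, its replicate 1 excess being known beforehand, so these shares are a description and carry no test. The 2 ChIP libraries disagree on this gene group, since replicate 1 holds most of the members and replicate 2 holds few. They disagree over all protein-coding genes as well, with 2861 in replicate 1, 620 in replicate 2 and 128 in both, so this is not particular to the members. Of the replicate 1 members, 52 of 53 had q of 0.05 or less, and the exception was rps-17 at 0.0565. Over all protein-coding genes it was 2733 of the 2861 with a replicate 1 summit, so this q sets the members little apart. In the pooled list 28 of 55 members had q of 0.05 or less, against 860 of 3562 over all protein-coding genes. The strongest summit of the 53 members had a median replicate 1 signal of 5.01 (quartiles 3.35 and 7.33), against 3.31 (2.58 and 5.07) in the 2808 other protein-coding genes with a summit.

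Accounting for every gene, 58 of the 78 had a summit in at least 1 list and 20 had none. Replicate 1 and the pooled list shared 50 members, and in 46 of these 50 the strongest summits lay within 100 bp of each other, with a median gap of 0 bp. The pooled list is not independent of replicate 1, whose reads it contains. The 3 members with a replicate 1 summit and no pooled summit were rpl-7, rpl-7A and rps-23. The 5 with a pooled summit alone were rpl-21 (signal 2.97), rps-18 (2.69), rpl-25.1 (2.28), rpl-28 (2.22) and rpl-41.1 (2.21), against a median of 2.90 over all peaks of that list, which rpl-21 alone of these 5 exceeded.

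**Figure D1:**
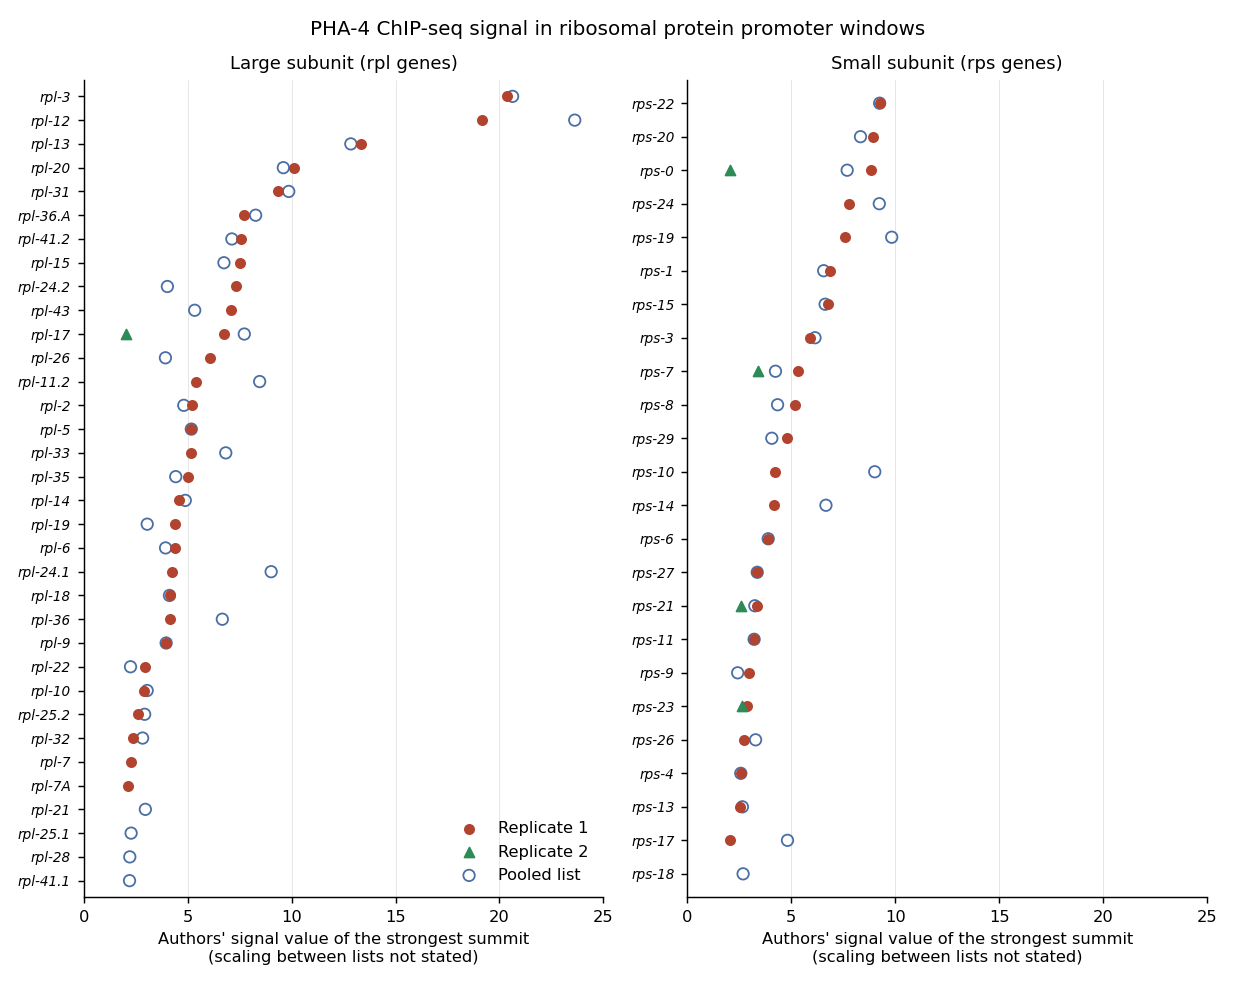
Each row is a ribosomal protein gene with a summit in at least 1 list, and the x axis is the authors' signal value (no unit) of its strongest summit in replicate 1 (filled circles), replicate 2 (triangles) and the pooled list (open circles). The large subunit genes rpl-3 and rpl-12 stand near 20 in replicate 1, the small subunit genes reach 9.25, and the 5 replicate 2 values lie between 2.04 and 3.4.

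The large subunit genes rpl-3 and rpl-12 stood at the top of the group. rpl-3 encodes a protein that reaches toward the peptidyl transferase centre, where peptide bonds form. Its summit had a signal of 20.4 in replicate 1 (rank 10 of 5607) and 20.6 in the pooled list (rank 14), and the peak at III:3867405-3867748 lay between genes, with its summit at −277 bp from the start (negative is upstream). rpl-12 encodes a protein at the base of the stalk that receives elongation factors. Its signal was 19.2 in replicate 1 (rank 18) and 23.6 in the pooled list (rank 7), with the peak at IV:13240503-13240846. Neither gene had a replicate 2 summit, and rpl-12 was the 1 member in the final list (1 of 78, against 0.035% of all protein-coding genes). The rpl-12 summit, at −24 bp from a start, also fell in the window of lin-54, which encodes a DNA-binding protein of the DREAM repressor complex. The 81 bases centred on both summits, from the WBcel235 reference genome and written along the strand of the gene, are shown because they are the strongest of the group. Capitals mark ACCGTA or GGCCTA in either orientation, which recur among the members as described further on, and rpl-12 has neither.
rpl-3, chrIII:3867537-3867617, plus strand: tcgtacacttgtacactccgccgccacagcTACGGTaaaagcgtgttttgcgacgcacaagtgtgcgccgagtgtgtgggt
rpl-12, chrIV:13240635-13240715, minus strand: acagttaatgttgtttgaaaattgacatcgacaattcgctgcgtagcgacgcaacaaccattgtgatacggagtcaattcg

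The remaining large subunit genes fell off gradually. The replicate 1 signal of the 30 bound rpl genes had a median of 5.16 and ran from 2.14 at rpl-7A to 20.4 at rpl-3. After rpl-3 and rpl-12 came rpl-13 (13.3 in replicate 1, 12.8 in the pooled list), then rpl-20 (10.1 and 9.60), rpl-31 (9.35 and 9.86) and rpl-36.A (7.69 and 8.27). These 6 had ranks from 10 to 412 in replicate 1. The next were rpl-41.2 with 7.585 in replicate 1 and 7.13 pooled, rpl-15 with 7.52 and 6.75, rpl-24.2 with 7.33 and 4.03, and rpl-43 with 7.10 and 5.34. The genes rpl-41.1 and rpl-41.2, which encode the shortest ribosomal protein, are near copies 699 bp apart. How the authors placed reads that match more than 1 site is not stated in the labels, so the split of signal between rpl-41.1 and rpl-41.2 is uncertain. Of the pair rpl-11.1 and rpl-11.2, whose product joins the 5S RNA particle together with that of rpl-5, rpl-11.2 had 5.42 in replicate 1 and 8.46 pooled, and rpl-11.1 had no summit in any list, its nearest replicate 1 summit being 49103 bp away. rpl-5 had 5.18 in both lists.

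The small subunit genes had no summit as strong as those of rpl-3 and rpl-12. A replicate 1 summit was present at 23 of 31 (74.19%), against 30 of 47 large subunit genes (63.83%), with a median signal of 4.23 and a highest of 9.25. The difference in share was not tested. In replicate 1 rps-22 led with 9.253, followed by rps-20 with 8.91 and rps-0 with 8.86, and in the pooled list these had 9.253, 8.33 and 7.69. rps-24 had 7.78 in replicate 1 and 9.24 pooled, and rps-19 had 7.605 and 9.83, the highest pooled value of the small subunit genes. Both encode proteins that human cells need to mature the small subunit RNA, and in people either gene can be mutated in Diamond-Blackfan anaemia. rps-6, whose product is the substrate of the S6 kinase below TOR, had 3.89 in replicate 1 and in the pooled list. rps-3, at the entry of the messenger RNA channel, had 5.89 in replicate 1 and 6.14 pooled. At the low end were rps-13 (2.54), rps-4 (2.57) and rps-17 (2.05) in replicate 1. The strongest 1000 peaks of replicate 1 marked 13 rpl and 9 rps genes, against 3.32% of all protein-coding genes.

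The 5 members with a replicate 2 summit gave different positions in the 2 replicates. At rps-7 the signals were 5.31 in replicate 1 (rank 988) and 3.4 in replicate 2 (rank 100, q = 0.387). The replicate 1 summit lay at −244 bp from the start and the replicate 2 summit at 102 bp, in a coding exon, 346 bp apart with overlapping peaks. A second replicate 2 summit of rps-7, with signal 2.58, lay 348 bp downstream in a coding exon. At rps-21 the signals were 3.35 and 2.57, with summits at −386 bp in replicate 1 and −173 bp in replicate 2, 213 bp apart. At rps-23, whose product sits at the decoding centre, they were 2.86 and 2.62, with the replicate 2 summit 370 bp downstream of the start in an intron. At rpl-17, whose product lines the exit tunnel, they were 6.77 and 2.04, with the replicate 2 summit 44 bp downstream in a coding exon. At rps-0 they were 8.86 and 2.06, the replicate 2 summit lying at −804 bp in an intron of rbg-3, 518 bp from the nearest replicate 1 summit and with no overlap of peaks. The replicate 2 summits thus lay at least 213 bp from any replicate 1 summit at each of these genes. The peaks themselves overlapped at rpl-17, rps-21 and rps-23 too, with a median width of 590 bp in replicate 2 and 344 bp in replicate 1. The gap at other genes with a summit in both replicates is not given here, so it is not known whether these members differ from them. The first signal of each pair above is that of replicate 1.

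The replicate 1 summits sat in a narrow belt upstream of the ribosomal protein genes. The strongest summit of each of the 53 genes lay at a median of −328 bp from the nearest start (SD 150.4 bp, quartiles −396 and −243). In the 2808 other protein-coding genes with a replicate 1 summit the median was −218.5 bp (SD 341 bp, quartiles −499 and −47). More than 150 and at most 500 bp upstream lay 44 of 53 ribosomal protein summits (83.02%), against 34.97% of the others. From the start to 500 bp downstream lay 1 of 53 (1.89%), at rpl-25.2, against 19.34%. The replicate 1 medians of the subunits were −328.5 bp for rpl and −328 bp for rps genes. The pooled list gave −325 bp for 55 members, with −339.5 bp for rpl and −311 bp for rps genes, a difference that was not tested. These are distances from annotated starts, and the spread among genes is not an error between replicates. In replicate 2 the 5 strongest summits ran from −804 to 370 bp, with a median of 44 bp.

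**Figure D2:**
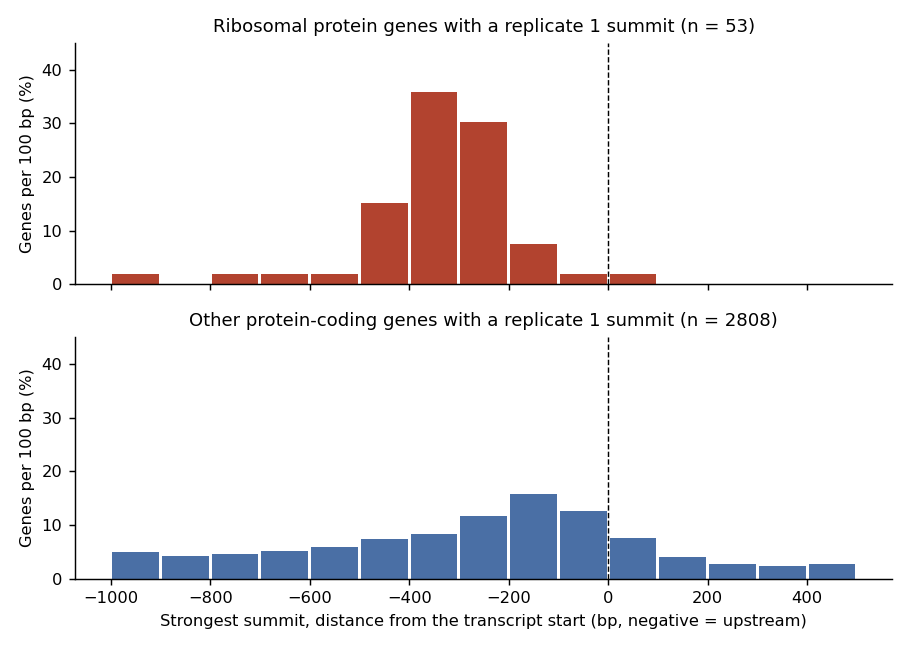
The x axis is the distance in bp of the strongest replicate 1 summit from the nearest annotated transcript start of the gene (negative is upstream, dashed line at the start), and the bars give the percent of genes per 100 bp. The 53 ribosomal protein genes (upper panel) gather around −328 bp, while the 2808 other genes (lower panel) spread from −1000 to 499 bp.

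Most of these summits lay between genes, and many served 2 genes at once by position. Of the 53, 39 were intergenic (73.58%, against 55.56% in other genes), 9 lay in a non-coding RNA gene outside any protein-coding gene (16.98%, against 4.74%), 2 in introns, 2 in untranslated exons and 1 in a coding exon (1.89%, against 12.14%). The summit also fell in the window of another protein-coding gene in 35 of 53 (66.04%, against 35.97%). For 25 of the 53 (47.17%, against 18.84%) the start nearest to the summit belonged to another gene. A single summit served the head-to-head genes rpl-24.1 and rps-10, with 4.23 in replicate 1 and 9.02 in the pooled list, at −214 bp from rpl-24.1 and −396 bp from rps-10. Another replicate 1 summit served rpl-36 and rps-14, with 4.17, at −226 bp from rpl-36 and −437 bp from rps-14. The strongest pooled summit of this pair lay elsewhere, at −368 bp from rpl-36 and −295 bp from rps-14, with 6.67. The 53 genes therefore had 51 distinct strongest summits, and 54 summits in all. When each summit was given to the nearest start alone, 29 members remained in replicate 1, against 11.6% of all genes. Whether PHA-4 at such a summit bears on the ribosomal protein gene or its partner cannot be told from these data.

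Short RNA genes were common inside the ribosomal protein genes. They lay within 500 bp of few of the summits, though of a larger share than in other genes. Worm introns host many small nucleolar RNAs (snoRNAs), which guide the chemical modification of ribosomal RNA. Of the 78 members 14 (17.95%) held a short RNA gene (tRNA, snoRNA, snRNA, rRNA or miRNA), against 2.64% of other protein-coding genes. A replicate 1 summit was present at 12 of these 14, against 53 of all 78 members (67.95%), and the difference was not tested. Of the short RNA genes held, all but the miRNA genes mir-353 in rpl-24.1 and cel-mir-354 in rps-20 were snoRNA genes. rpl-6 held 3 of them, R151.11, R151.12 and R151.13. Within 500 bp of the strongest replicate 1 summit a short RNA gene was present at 5 of 53 members (9.43%, against 3.70% in other genes), each a snoRNA gene. For snoRNA genes alone the share in other genes was 1.14%. Those near member summits were F39B2.14 at 129 bp from the rps-26 summit, D1007.20 at 348 bp from the summit of rpl-24.1 and rps-10, Y24D9A.9 at 388 bp from that of rpl-7A and F28C6.11 at 421 bp from that of rpl-26. None of the 53 members had a tRNA gene within 500 bp of the summit, against 1.60% of other genes. The count depended on the distance, with 1 of 53 within 200 bp (1.89%, against 2.53%) and 12 of 53 within 1000 bp (22.64%, against 4.92%).

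The PHA-4 consensus was present at a smaller share of the ribosomal protein summits than of the other promoter summits of replicate 1. The consensus was sought on both strands as 7 bases, a T, a purine, 2 Ts, a G or T, a purine and a pyrimidine. It lay within 100 bp of 17 of the 54 summits in ribosomal protein windows (31.48%, exact Clopper-Pearson 95% interval 19.52 to 45.55) and of 1508 of the 2542 summits in other promoter windows (59.32%, 57.38 to 61.24). Windows of the same width 500 bp to each side of the summits held it in 37.96% for ribosomal protein genes and 48.17% for the others. For most ribosomal protein summits the flank toward the gene lay downstream of the start, so these flanks are not all promoter sequence. The order of ribosomal protein summits and their flanks changed with the width, with 22.22% of summits against 19.44% of flanks within 50 bp and 57.41% against 51.85% within 150 bp. At the other promoter summits the share was above that of the flanks at each width, with 36.55% against 27.6% within 50 bp and 71.83% against 62.8% within 150 bp. The intervals cover the counting of summits, and no test of the difference was made. Of all other nuclear promoters, 49.81% held the consensus in a window of that width centred at the members' median distance of −328 bp, and 48.72% of the 78 members did. Among the strongest 1000 peaks the shares were 5 of 23 (21.74%) and 323 of 502 (64.34%), and in the pooled list 37.29% and 56.63%. No match says only that these letters are absent from the window.

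Among the 53 genes, 16 had a consensus within 100 bp of the strongest summit. The closest, measured to the middle of the consensus, were at rpl-10 (3 bp), rpl-15 (11 bp), rpl-19 (12 bp), rpl-2 (13 bp) and rps-27 (19 bp). The protein of rpl-10 is among the last to join the large subunit, and the rpl-10 summit lay in an untranslated exon of ints-11. The 4 strongest members, rpl-3, rpl-12, rpl-13 and rpl-20, had between them 1 site, 92 bp from the rpl-3 summit. Next in strength, rpl-31 had 3 sites, the nearest at 37 bp, and rps-22, rps-20 and rps-0 after it had none. The 81 bases around 3 summits with a consensus are shown along the strand of the gene, with the consensus in capitals, to set them beside the summits without one.
rpl-10, chrII:8143372-8143452, plus strand: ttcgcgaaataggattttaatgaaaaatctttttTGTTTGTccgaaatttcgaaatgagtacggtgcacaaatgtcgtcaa
rpl-15, chrIV:654909-654989, minus strand: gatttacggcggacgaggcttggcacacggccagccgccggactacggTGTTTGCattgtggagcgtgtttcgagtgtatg
rps-8, chrIV:7314027-7314107, minus strand: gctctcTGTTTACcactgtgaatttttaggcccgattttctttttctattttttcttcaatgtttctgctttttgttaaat

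Other short words recurred at the ribosomal protein summits. All words of 6 letters were counted within 100 bp of the summits, on both strands, and ranked by the difference in share between the 54 summits in ribosomal protein windows and the 2542 in other promoter windows. The 3 highest are given here in order. ACCGTA was present at 22 of 54 (40.74%), against 7.32% of other promoter summits and 1.85% of the flanks of the same 54 summits. AAATCG was present at 29 of 54 (53.7%), against 20.3% and 23.15%. GGCCTA was present at 20 of 54 (37.04%), against 4.01% and 1.85%. The flanks, as above, include sequence downstream of the starts. The words were chosen for this difference, so the shares describe it and no test applies. At least 1 of the 3 was found at 45 of 54 summits (83.33%), against 29.11% of other promoter summits.

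**Figure D3:**
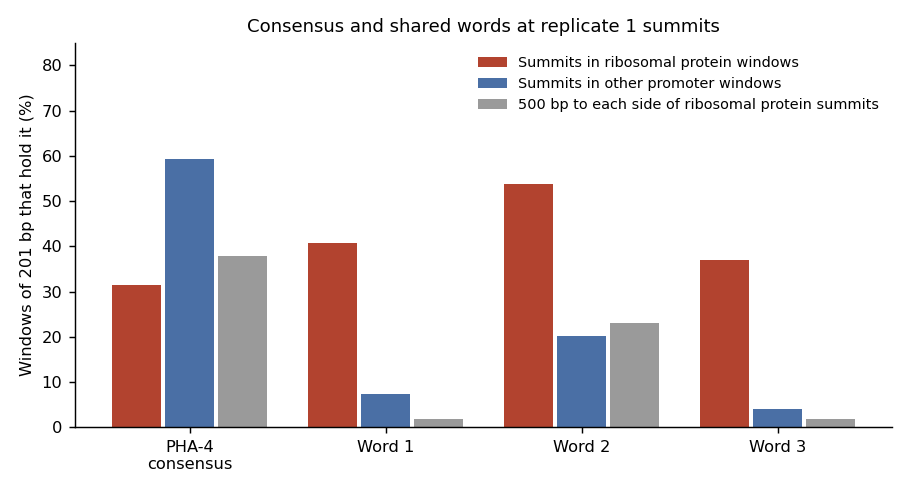
Bars give the percent of 201 bp windows that hold the PHA-4 consensus, ACCGTA (word 1), AAATCG (word 2) or GGCCTA (word 3), for the 54 replicate 1 summits in ribosomal protein windows, the 2542 in other promoter windows, and the 108 windows 500 bp to each side of the ribosomal protein summits. The consensus is lower at ribosomal protein summits than at the others (31.48% against 59.32%), and the 3 words, which were chosen for their difference, are higher.

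The 25 ribosomal protein genes without a replicate 1 summit took no part in the choice of words. From 600 bp upstream up to the outermost start, ACCGTA was present in 8 of these 25 (32%), against 28 of the 53 with a summit (52.83%) and 16.18% of other nuclear protein-coding genes. GGCCTA was present in 6 of 25 (24%), against 27 of 53 (50.94%) and 8.81%. AAATCG was present in 17 of 25 (68%), against 45 of 53 (84.91%) and 47.99%. The windows of the head-to-head genes rpl-39 and rps-30, both among the 25, overlap, so 1 site can count for each. Among the 53 the same holds for rpl-24.1 with rps-10 and for rpl-36 with rps-14. In the 70 mitochondrial ribosomal protein genes the shares were 15.71% for ACCGTA, 11.43% for GGCCTA and 71.43% for AAATCG. The 2 rarer words differed in where they lay: the 22 ACCGTA sites had a median of 20 bp from the summit toward the gene, with 17 of 22 within 50 bp, and the 21 GGCCTA sites had a median of 60 bp, with 7 of 21 within 50 bp. At rpl-43 both lie near the summit. That summit was at −706 bp, also in the window of Y48B6A.1, and the start nearest to it was not that of rpl-43. The 81 bases around it are shown along the strand of rpl-43 with both words in capitals.
rpl-43, chrII:14154548-14154628, plus strand: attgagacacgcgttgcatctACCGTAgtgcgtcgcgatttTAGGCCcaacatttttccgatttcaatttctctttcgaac

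**Figure D4:**
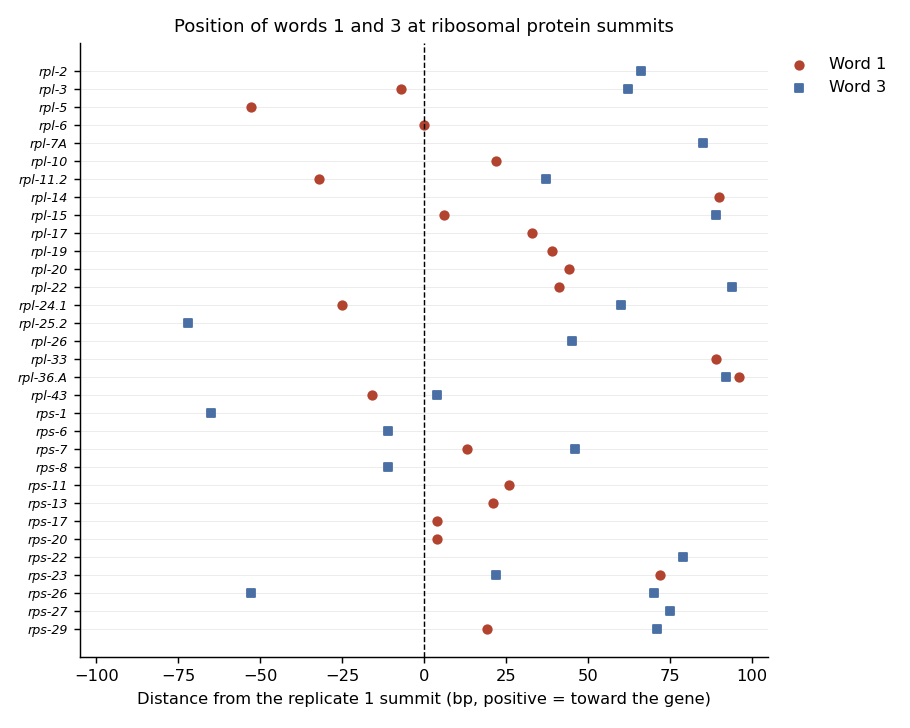
Each row is a ribosomal protein gene whose replicate 1 summit has ACCGTA (word 1, circles) or GGCCTA (word 3, squares) within 100 bp, and the x axis is the distance of the middle of the word from the summit in bp, positive toward the gene. A summit that serves 2 members is drawn once. The circles have a median of 20 bp and the squares a median of 60 bp.

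Longer words were shared within groups of members. Of all words of 10 letters at the 54 summits, ranked by the number of summits that held them, the first 3 with no 5 letters in common were AAACGAGTGT, GCGCCTTTAA and CTGAGTATTC. They were chosen for their number at these same 54 summits, so their shares there are a description and no test applies. AAACGAGTGT was present at 9 of 54 summits (16.67%), against 0.275% of other promoter summits. These 9 summits belonged to rpl-6, rpl-11.2, rpl-19, rpl-22, rpl-24.1 with rps-10, rps-7, rps-13, rps-23 and rps-29. Of these, 6 sites are shown with 15 bases to each side, each along the strand on which the word reads as written, because ACCGTA follows the word after 1 base that varies, as it does at 9 of the 9 summits.
rpl-6, chrIII:7208058-7208097, plus strand: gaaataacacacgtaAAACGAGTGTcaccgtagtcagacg
rpl-11.2, chrX:2242952-2242991, minus strand: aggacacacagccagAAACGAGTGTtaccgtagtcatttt
rpl-22, chrII:5055368-5055407, plus strand: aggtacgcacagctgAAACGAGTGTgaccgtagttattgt
rps-13, chrIII:6375153-6375192, minus strand: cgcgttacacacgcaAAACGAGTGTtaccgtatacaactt
rps-23, chrIV:12391281-12391320, plus strand: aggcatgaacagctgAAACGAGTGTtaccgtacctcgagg
rps-29, chrIII:793788-793827, plus strand: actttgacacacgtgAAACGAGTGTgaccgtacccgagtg

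GCGCCTTTAA was present at 9 of 54 summits (16.67%), against 1.02% of other promoter summits and 2.31% of the 600 bp windows of other genes. Its members were rpl-2, rpl-17, rpl-26, rpl-36.A, rps-3, rps-6, rps-11, rps-17 and rps-24. The word ran opposite to the gene at 7 of the 9 sites. The 6 shown are all of that kind, with positions from 83 bp before to 3 bp beyond the summit in the direction of the gene.
rpl-2, chrV:20479277-20479316, minus strand: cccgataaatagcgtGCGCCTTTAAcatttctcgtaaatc
rpl-26, chrII:8602474-8602513, minus strand: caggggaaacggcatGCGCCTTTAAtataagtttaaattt
rpl-36.A, chrII:11097554-11097593, plus strand: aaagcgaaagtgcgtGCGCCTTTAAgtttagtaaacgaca
rps-3, chrIII:6206393-6206432, minus strand: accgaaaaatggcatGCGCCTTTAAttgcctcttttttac
rps-11, chrIV:11602269-11602308, minus strand: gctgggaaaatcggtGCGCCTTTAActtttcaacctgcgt
rps-24, chrIV:385559-385598, minus strand: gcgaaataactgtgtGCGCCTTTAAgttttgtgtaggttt

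CTGAGTATTC was present at 8 of 54 summits (14.81%), against 4 of 2542 other promoter summits (0.157%) and 16 of 19895 other nuclear genes in the 600 bp window (0.0804%). Its members were rpl-6, rpl-7A, rpl-13, rpl-32, rps-0, rps-3, rps-20 and rps-22. Of the 25 members without a replicate 1 summit, 2 held it in that window (8%). AAACGAGTGT was likewise in 2 of the 25, against 51 of 19895 other genes (0.256%), and GCGCCTTTAA in 1. The sites are shown as before, and a pair of As follows the word at 8 of the 8 sites, those not shown included. rpl-6 holds both this word and AAACGAGTGT, and rps-3 holds this word and GCGCCTTTAA.
rpl-6, chrIII:7208107-7208146, minus strand: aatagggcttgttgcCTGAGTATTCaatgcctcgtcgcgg
rpl-7A, chrIV:4390615-4390654, plus strand: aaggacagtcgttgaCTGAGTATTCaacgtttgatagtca
rpl-32, chrII:9057424-9057463, plus strand: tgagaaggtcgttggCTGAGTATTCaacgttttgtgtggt
rps-0, chrIII:4754310-4754349, minus strand: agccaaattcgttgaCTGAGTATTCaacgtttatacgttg
rps-3, chrIII:6206465-6206504, plus strand: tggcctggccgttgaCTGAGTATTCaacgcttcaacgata
rps-22, chrIII:1950417-1950456, plus strand: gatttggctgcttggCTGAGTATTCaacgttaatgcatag

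The 25 members without a replicate 1 summit were rpl-1, rpl-4, rpl-11.1, rpl-16, rpl-21, rpl-23, rpl-25.1, rpl-27, rpl-28, rpl-29, rpl-30, rpl-34, rpl-37, rpl-38, rpl-39, rpl-41.1, rpl-42, rps-2, rps-5, rps-12, rps-16, rps-18, rps-25, rps-28 and rps-30. The distance of their nearest replicate 1 summit had a median of 4719 bp, and in 18 of 25 it exceeded 2000 bp. Just outside the window were rpl-41.1, rpl-30 and rpl-27, with summits 789, 798 and 817 bp downstream, and rps-16 and rps-28, with summits at −1813 and −1866 bp. The summit nearest to rpl-41.1 is that of rpl-41.2. Just inside was rpl-7, whose summit lay at −908 bp with a signal of 2.26. A protein-coding gene on the same strand ended within 500 bp upstream of 8 members, as it does in operons, where several genes share a promoter. Of these 8, 3 had a replicate 1 summit (37.5%), against 50 of the other 70 members (71.43%). Split the same way, other protein-coding genes had one in 11.67% with such a neighbour and 14.65% without. In the pooled list it was 4 of 8 members (50%), against 51 of 70 (72.86%), and the difference was not tested. Among the 5 without one, the gene upstream had its own summit at rps-16 and rpl-25.1. That of rps-16 is fib-1, which encodes the fibrillarin that methylates ribosomal RNA, and its summit had a signal of 7.76 in replicate 1 and 9.88 in the pooled list.

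By chromosome, replicate 1 summits marked 18 of 23 members on I, against 16.71% of its other protein-coding genes, and 9 of 10 on II, against 13.55%. They marked 13 of 18 on III, against 17.96%, and 10 of 17 on IV, against 13.85%. On V they marked 2 of 8 (25%), rpl-2 and rps-27, against 9.73%, and on X 1 of 2, rpl-11.2, against 16.38%. The share was lowest on V both for the members and for the other genes of these 6 nuclear chromosomes.

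Other genes that build the ribosome had summits in smaller shares than the rpl and rps genes. Of the 6 further cytosolic ribosome genes, 2 had a replicate 1 summit: ubq-2, a ubiquitin fused to a large subunit protein (8.56 in replicate 1, 8.07 pooled), and ubl-1, a ubiquitin-like protein fused to a small subunit protein (3.56 and 3.02). The stalk genes rla-0, rla-1 and rla-2 and the scaffold gene rack-1 had none in any list. Of the 70 mitochondrial ribosomal protein genes (mrpl and mrps), 17 had a replicate 1 summit (24.29%, against 14.3% of all protein-coding genes), 20 a pooled one and 1, mrpl-24, a replicate 2 one. The highest were mrps-7 (11.4 in replicate 1, 11.2 pooled) and mrpl-28 (11.2 and 11.4). Of 18 genes for ribosome assembly and RNA polymerase I, 8 had a replicate 1 summit (44.44%), 10 a pooled one and 0 a replicate 2 one. They included rbd-1 (9.02), fib-1 (7.76), nol-58 (6.76) and nol-56 (2.37), of which the last 3 encode core proteins of the snoRNA particles. The lpd-7 summit (3.98) is the one counted for rpl-9, at −248 bp from lpd-7 and −271 bp from rpl-9. These differences between lists were not tested.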

How the data were processed

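The authors deposited peak lists in ce10 and ce11; the ce11 lists were used, together with RefSeq's WBcel235 sequence and gene models from Ensembl release 115 (the same assembly). Per the labels' file listing, each relaxed ce11 list was made against 2 control alignments, from 1 replicate or from both pooled. The aligner, the peak caller and its version are not stated in the labels or headers. The deposited signal value per peak and the deposited −log10 q-value were taken as they stand, and −log10 q was turned into q. Read depth is unknown.

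Transcripts annotated as protein-coding gave the starts. Each gene was described by its strongest summit and the nearest start. Computation used Python 3.11.15 with numpy 2.4.6, pandas 2.3.3, scipy 1.17.1 and matplotlib 3.10.9. The window search was tested on simulated peaks. With 1 group, no test between groups exists, and none was run. The members and lists were chosen with earlier results of these data known, and the words and distance ranges after seeing the data. Genes set for individual description were the 15 of highest replicate 1 signal and all with a replicate 2 or final peak. For many of these 15 the signals are given without the distance to the start. Of the 22 assembly genes listed, 18 carried that symbol. The ce10 lists were not used here.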

Additional observations from a re-analysis of the deposited data

How the results depend on the processing

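The count of ribosomal protein genes with a summit moved by more than 1.5 times under the alternatives given next, and stayed within that under the others run, among them the outermost start and overlapping peaks in every list. With the nearest start only, it was 29 in replicate 1 (11.6% of all genes), 33 pooled (14.8%) and 2 in both replicates (0.445%). With the strongest 1000 peaks it was 22 in replicate 1 (3.32% of all genes), 3 in replicate 2 (1.7%), 23 pooled (3.35%) and 1 in both (0.115%). With q of 0.05 or less it was 28 in the pooled list (4.3% of all genes). In replicate 2 it was 3 (1.57% of all genes) with a window of 500 bp upstream and 250 bp downstream. With 2000 bp upstream it was 8 (4.77%). In both replicates it was 3 (0.225%) with the shorter window. Without replicate 2 the count was 53 (14.3% of all genes), in place of the 5 with a summit in each list (0.64%). Without replicate 1 it stayed at 5 (3.1%). Members with a short RNA gene near the summit numbered 1 within 200 bp and 12 within 1000 bp, in place of 5. The PHA-4 consensus share was 57.41% within 150 bp, in place of 31.48%. The alternatives were built to use fewer or more peaks, a narrower or wider window, or the nearest start alone. The cause of each change was not tested. No paired analysis was possible because there is 1 group. The unknown depth limits every count of genes without a summit: a missing peak does not show a lack of binding.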
